A study of Homo sapiens with 6 samples.

Results

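The 10 genes described here encode NADPH- or NADH-dependent reductases of aldehydes, ketones and quinones, and were chosen by name from the 58302 genes of a single expression table. They are the aldo-keto reductases AKR1A1, AKR1B1, AKR1B10, AKR1C1, AKR1C2, AKR1C3 and AKR7A2, the carbonyl reductases CBR1 and CBR3, and the quinone reductase NQO1. All 10 had a row in the table, and 7 of them passed the filter on low values (a mean over the libraries of at least 1 FPKM, a read count corrected for the length of the gene and the size of the library) and were tested among 11945 genes. AKR1C1, AKR1C2 and AKR1C3 did not pass it and are described separately.

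The study measured polyA RNA of ME180, an established human cervical cancer cell line labelled as epithelial, 48 h after transfection of a small interfering RNA. The siControl group received a control siRNA and the siSGK1 group an siRNA against SGK1, a serine/threonine kinase related to AKT, and both groups are of the same line with no other allele or agent in the labels. Each group had 3 libraries, numbered 2, 3 and 4 and described as biological repeats. Neither the siRNA sequences nor the number of siRNAs per target is known from the labels.

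Aldo-keto reductases are soluble, barrel-shaped enzymes that use NADPH to turn aldehydes and ketones into alcohols, and carbonyl reductases do the same from the separate short-chain dehydrogenase fold. NQO1 is a flavoprotein that passes a pair of electrons to a quinone at once, which avoids the reactive semiquinone. Several of these genes, NQO1 and the AKR1B10 and AKR1C genes among them, are known targets of NRF2 (gene NFE2L2), a transcription factor of the oxidative stress response that KEAP1 marks for degradation, and in squamous tumours their levels are widely used as a readout of that factor.

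Most of the reductase transcripts were lower after siSGK1. Changes are differences of log2(FPKM + 0.5), siSGK1 minus siControl, from a linear model fitted by limma across all tested genes, and a gene is said to fall or rise where its adjusted p was below 0.05. By this test AKR1B10, AKR1B1, NQO1, AKR1A1 and CBR1 fell, to between 62.3% and 84.6% of the control mean, AKR7A2 and CBR3 did not pass the test, and none rose. The AKR1C genes, at under 1.1 FPKM in every library, measured 33.6% to 44.0% of the control mean. The share of tested genes that fell was 22.7% over all 11945 genes and the share that rose was 17.9%, so that 5 of 7 tested reductases called lower and 0 of 7 called higher stand beside these backgrounds. Lower calls were more frequent among abundant transcripts: of the 1666 tested genes with a mean of at least 30 FPKM, 42.9% fell, beside 5 of the 6 reductases at that level. The median log2 change was −0.39 over the 7 tested reductases, −0.01 over all tested genes and −0.11 over those of at least 30 FPKM.

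Depth was 27262794 to 27874948 gene-assigned reads per siControl library and 28405647 to 35242643 per siSGK1 library, and the 10 reductases took 0.120% to 0.127% of reads in siControl and 0.0979% to 0.0991% in siSGK1. Mitochondrially encoded transcripts took 4.16% to 4.40% and 3.38% to 3.66% of reads, respectively. SGK1 itself measured 3.91, 4.27 and 4.17 FPKM in siControl and 1.58, 1.70 and 1.81 FPKM in siSGK1, or 41.2% of the control mean (limma log2 change −1.07, SE 0.07, adjusted p = 1.88e-05). All 11 squamous epithelial markers were present, led by KRT5, KRT17 and SFN, and 7 of them fell. Each of the 11 had a mean of at least 30 FPKM, a level at which 42.9% of tested genes fell. The summed level of the 11 markers was 10323 to 11059 FPKM in siControl and 6495 to 7568 in siSGK1, and its part in the results below was not tested. Of the markers of other cell types, 1 of 7 fibroblast markers (COL1A1), 0 of 5 endothelial and 0 of 6 leukocyte markers reached a mean of 1 FPKM. Their summed levels in siControl and siSGK1 were 4.75 to 5.26 and 4.89 to 5.76 FPKM for fibroblasts, 1.42 to 1.70 and 0.736 to 0.937 for endothelium, mostly VWF with PECAM1 at 0, and 0.165 to 0.233 and 0.166 to 0.383 for leukocytes, mostly CD14. The libraries were made from bulk RNA, so fewer cells holding a transcript and less of it per cell cannot be told apart.

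**Figure D1:**
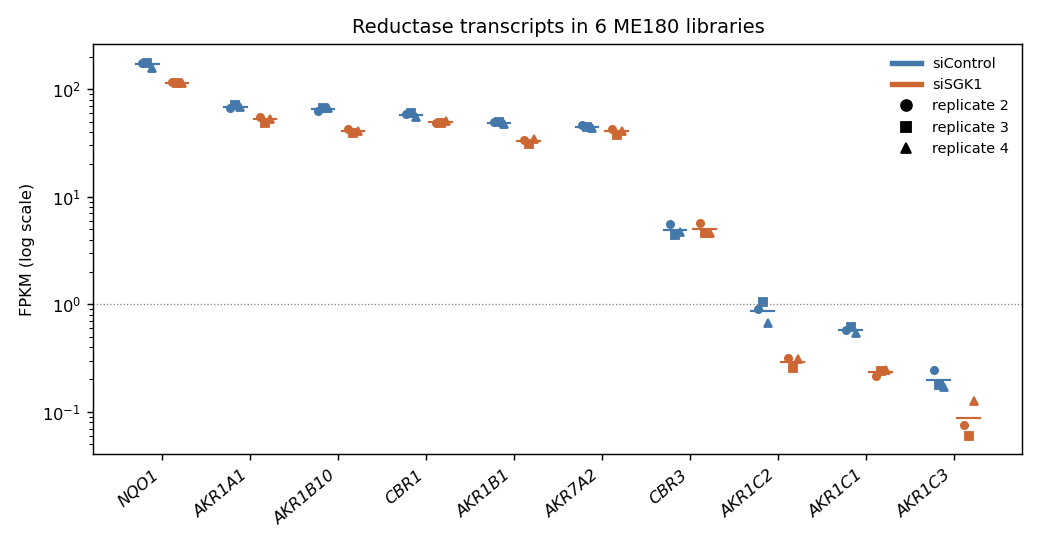
FPKM of the 10 reductase genes on a log axis, siControl in blue and siSGK1 in orange, with 1 point per library (the symbol gives the replicate number), the group mean as a bar and the filter level of 1 FPKM as a dotted line. On this scale NQO1 lies highest at a siControl mean of 169.9 FPKM, AKR1C3 lowest at 0.198, and the points of the groups mix only for CBR3.

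FPKM are scaled to gene length, so levels can be compared between genes. In siControl the order of mean levels was NQO1 (169.9 FPKM), AKR1A1 (68.9), AKR1B10 (65.5), CBR1 (58.1), AKR1B1 (48.9), AKR7A2 (44.7), CBR3 (4.92), AKR1C2 (0.875), AKR1C1 (0.576) and AKR1C3 (0.198). In siControl, no gene's library range overlapped that of its neighbour in this order. In siSGK1, CBR1 (49.2 FPKM) lay above AKR1B10 (40.8) and AKR7A2 (40.5) above AKR1B1 (32.9). In that order the library ranges of AKR1A1 and CBR1 overlapped, as did those of AKR1B10 and AKR7A2. The length the table uses joins the exons of all transcripts of a gene, which was 2.68 times the length of the principal GENCODE 29 transcript for AKR1A1, 2.60 times for AKR1B1 and 1.10 times for AKR1B10, so the order depends on that choice. Per length of the principal transcript, NQO1 and AKR1A1 overlapped in both groups, at means of 189.9 and 184.4 in siControl and 128.5 and 140.5 in siSGK1, and AKR1B1 (127.0 in siControl) lay above CBR1 (110.1) and AKR1B10 (71.8).

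NQO1 had the highest FPKM of the 10 as deposited. NQO1 (ENSG00000181019, chromosome 16, 69706996 to 69726951, minus strand, GRCh38) measured 176.7, 174.3 and 158.8 FPKM in siControl and 116.9, 114.1 and 113.9 FPKM in siSGK1. Every siSGK1 library lay below every siControl library, and the siSGK1 libraries lay closer together (SD 1.69 FPKM) than the siControl libraries (SD 9.70). NQO1 fell from 169.9 ± 9.7 to 115.0 ± 1.7 FPKM (SD, n = 3 each), with a limma log2 change of −0.56 (SE 0.05, adjusted p = 8.76e-05) that was lower than that of all but 4.45% of tested genes. A two-sided exact permutation test cannot go below p = 0.1 with 3 libraries a group, and it gave that value for NQO1 and for each further reductase whose groups did not overlap. Of the bases in NQO1 exons, 17.7% also lie in exons of the opposite-strand gene AC092115.2, which was listed at 0 FPKM.

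The AKR1B pair lies side by side on chromosome 7 and both members fell. AKR1B1 (ENSG00000085662, 134442350 to 134459284, minus strand) is aldose reductase, which turns glucose into sorbitol, and AKR1B10 (ENSG00000198074, 134527592 to 134541408, plus strand), 68308 bases away, reduces retinal and lipid aldehydes. AKR1B10 measured 63.2, 66.7 and 66.4 FPKM in siControl and 42.9, 38.8 and 40.7 FPKM in siSGK1. AKR1B1 measured 49.5, 49.8 and 47.3 FPKM in siControl and 33.5, 30.7 and 34.7 FPKM in siSGK1. For both genes the siSGK1 libraries lay wholly below the siControl libraries. AKR1B10 fell to 62.3% of the control mean (limma log2 change −0.68, SE 0.05, adjusted p = 3.54e-05), further than all but 2.72% of tested genes, and AKR1B1 to 67.4% (−0.56, SE 0.05, adjusted p = 0.000124). Their log2 ratio within a library, AKR1B10 over AKR1B1, was 0.42 ± 0.07 in siControl and 0.31 ± 0.07 in siSGK1, and the values overlapped (difference −0.11, exact permutation p = 0.2, adjusted p = 0.267 over the 8 pairs compared). The third gene of the cluster, AKR1B15, shares 93.8% of its aligned coding bases with AKR1B10 and measured 0.164 ± 0.019 and 0.110 ± 0.018 FPKM. AKR1B10 and AKR1B15 share 0.901% of the 100-base stretches of AKR1B10 transcripts.

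AKR1A1 is the general aldehyde reductase of the family. AKR1A1 (ENSG00000117448, chromosome 1, 45550543 to 45570049, plus strand) measured 67.2, 71.5 and 68.1 FPKM in siControl and 55.6, 48.8 and 53.1 FPKM in siSGK1. The groups did not overlap, and siSGK1 replicate 3 was the lowest library. AKR1A1 fell to 76.2% of the control mean (limma log2 change −0.39, SE 0.06, adjusted p = 0.000919). The log2 ratio of AKR1A1 to AKR1B1 within a library was 0.49 ± 0.05 in siControl and 0.66 ± 0.06 in siSGK1, higher in each siSGK1 library than in any siControl library. The exact permutation p of that difference of 0.17 was 0.1, or 0.267 after adjustment over the 8 pairs, and 0.05 is out of reach of this design.

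AKR7A2, a reductase of succinic semialdehyde and aflatoxin aldehyde, was close to its control level. AKR7A2 (ENSG00000053371, chromosome 1, 19303965 to 19312146, minus strand) measured 46.2, 44.5 and 43.6 FPKM in siControl and 42.8, 37.5 and 41.1 FPKM in siSGK1. The groups did not overlap, but siSGK1 replicate 2 lay within 1 FPKM of the lowest control library. The mean was 90.4% of control, with a limma log2 change of −0.15 (95% interval −0.27 to −0.02, adjusted p = 0.0690). Without siSGK1 replicate 2 the log2 change was −0.19 and passed the test (limma adjusted p = 0.0390), as it did in limma voom on the recovered reads (−0.15, adjusted p = 0.0460). In limma voom over genes with a mean of at least 10 reads it did not pass (−0.15, adjusted p = 0.0531). With TPM scaling the sign turned (0.06, adjusted p = 0.240). Its neighbours AKR7A3 and AKR7L were at 0.236 ± 0.010 and 0.0865 ± 0.0416 FPKM in siControl and at 0.175 ± 0.028 and 0.0895 ± 0.0463 in siSGK1. The log2 ratio of AKR7A2 to AKR7A3 with 0.5 FPKM added to each differed by −0.02 between groups (exact permutation p = 0.8, adjusted p = 0.8). At the level of AKR7A3 this value is set by what is added: without it the difference was 0.30 (exact permutation p = 0.1), and the plain ratios were 182.7 to 197.3 in siControl and 197.9 to 269.1 in siSGK1, without overlap. AKR7A3 held only 10 to 11 reads per siControl library and 8 to 13 per siSGK1 library, so this narrow separation rests on few reads.

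The carbonyl reductases share 77.5% of their aligned coding bases and lie 61746 bases apart on chromosome 21. CBR1 (ENSG00000159228, 36069941 to 36073166, plus strand) reduces quinones, prostaglandin E and the anthracycline drugs, and CBR3 (ENSG00000159231, 36134912 to 36146566, plus strand) is its less abundant relative with a narrower range of substrates. CBR1 measured 59.1, 60.4 and 54.7 FPKM in siControl and 48.4, 48.3 and 50.7 FPKM in siSGK1, without overlap. CBR1 fell to 84.6% of the control mean (limma log2 change −0.24, SE 0.05, adjusted p = 0.00582). That call did not hold when libraries were scaled by total reads (−0.10, adjusted p = 0.0874) or to TPM (−0.04, adjusted p = 0.495). It was also lost in fits that drop the level filter together with another change. These were total-read scaling (limma adjusted p = 0.185), TPM scaling (0.605), the replicate block (0.103) and leaving out any library but siControl replicate 4 (0.0719 to 0.104). Without the filter it held with other pseudocounts, quantile normalization, voom and without siControl replicate 4 (adjusted p = 0.0254). CBR3 measured 5.64, 4.45 and 4.66 FPKM in siControl and 5.70, 4.62 and 4.60 FPKM in siSGK1, with replicate 2 highest in both groups and the groups interleaved. Its log2 change was 0.02 (95% interval −0.22 to 0.25, limma adjusted p = 0.918), an interval that reaches changes nearly as large as that of CBR1. The log2 ratio of CBR3 to CBR1 was −3.44 ± 0.17 in siControl and −3.19 ± 0.18 in siSGK1, and the difference of 0.25 did not pass the test (exact permutation p = 0.2, adjusted p = 0.267). Exons of opposite-strand genes cover 18.9% of the CBR1 exon bases (AP000688.1, mean 0.244 FPKM) and 42.2% of those of CBR3 (CBR3-AS1, mean 0.217 FPKM). How reads in the shared bases were counted is not known, and the levels of CBR1 and CBR3 may depend on it.

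**Figure D2:**
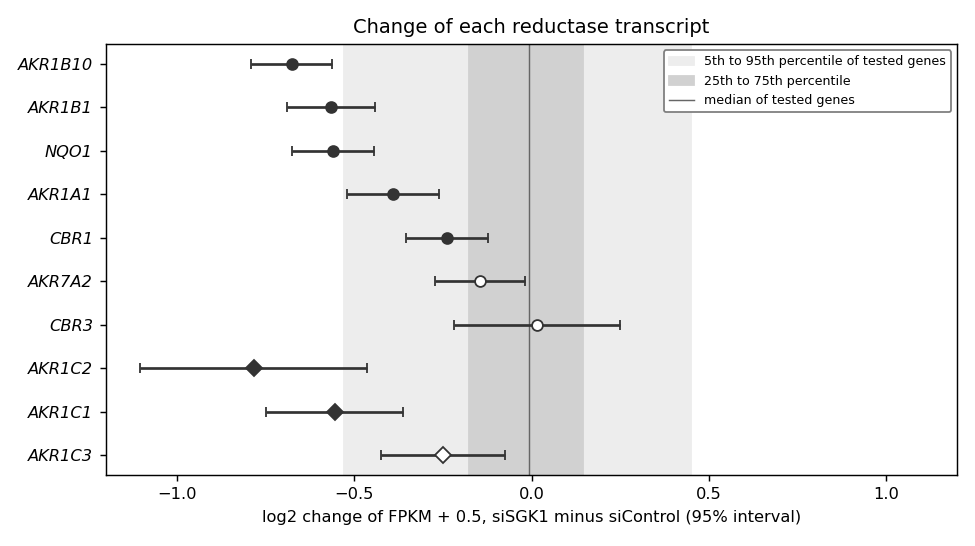
Log2 change of FPKM + 0.5 for each reductase (x axis, siSGK1 minus siControl) with its 95% interval from limma, over grey bands that show the spread of all 11945 tested genes. Circles are the 7 genes that passed the level filter and diamonds the 3 AKR1C genes from the fit without it, filled where the adjusted p was below 0.05. AKR1B10 lies furthest left of the circles at −0.68 and CBR3 at 0.02.

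The AKR1C genes reduce steroids and prostaglandins: AKR1C1 inactivates progesterone, AKR1C2 inactivates dihydrotestosterone, and AKR1C3 forms testosterone and prostaglandin F. They lie together on chromosome 10, AKR1C1 (ENSG00000187134) at 4963253 to 4983283 on the plus strand, AKR1C2 (ENSG00000151632) at 4987400 to 5018031 on the minus strand and AKR1C3 (ENSG00000196139) at 5035354 to 5107686 on the plus strand. The coding sequences of AKR1C1 and AKR1C2 are near-identical, which limits how far reads can be assigned to either gene alone. AKR1C1 and AKR1C2 are the same at 98.0% of 969 aligned coding bases, with 19 differences and an identical run of 186 bases, while AKR1C3 is the same as AKR1C1 at 91.4% and as AKR1C2 at 91.0%. The first 120 coding bases of the principal GENCODE 29 transcripts follow, with capitals at the 19 positions where the 3 genes are not all the same. AKR1C2 differs from AKR1C1 at 4 of these positions and AKR1C3 at 16.
AKR1C1: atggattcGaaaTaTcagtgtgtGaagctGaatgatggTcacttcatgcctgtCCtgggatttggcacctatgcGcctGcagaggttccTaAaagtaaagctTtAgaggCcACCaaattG
AKR1C2: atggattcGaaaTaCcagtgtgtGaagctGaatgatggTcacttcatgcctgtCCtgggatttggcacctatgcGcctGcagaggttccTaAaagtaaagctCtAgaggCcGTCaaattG
AKR1C3: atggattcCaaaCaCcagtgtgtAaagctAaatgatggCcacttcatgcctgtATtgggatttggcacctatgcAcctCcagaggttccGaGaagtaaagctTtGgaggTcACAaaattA
Over whole transcripts, 16.5% of the 100-base stretches of AKR1C1 also occur in AKR1C2 and 22.1% of those of AKR1C2 also occur in AKR1C1, beside 1.48% of AKR1C3 stretches that occur in AKR1C2. How such shared reads were counted is not given in the sources used here.

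All 3 AKR1C genes were at a low level in both groups and were lower in every siSGK1 library. AKR1C2 measured 0.903, 1.06 and 0.666 FPKM in siControl and 0.316, 0.257 and 0.308 FPKM in siSGK1, from 116 to 177 and 55 to 73 reads. AKR1C1 measured 0.574, 0.611 and 0.542 FPKM in siControl and 0.213, 0.241 and 0.243 FPKM in siSGK1, from 128 to 139 and 55 to 78 reads. AKR1C3 measured 0.244, 0.179 and 0.172 FPKM in siControl and 0.075, 0.060 and 0.127 FPKM in siSGK1, from 21 to 29 and 9 to 21 reads. In FPKM, no siSGK1 library reached the lowest siControl library for any of the 3 genes. Further genes of the same cluster had almost no reads: AKR1C4 had 1 read in a single siControl library and 0 reads in the other 5, and AKR1C8P had 0 in all 6.

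In the limma fit without a filter on level, in which 6.56% of 31878 genes fell, AKR1C1 fell with a log2 change of −0.55 (SE 0.08, adjusted p = 0.00957) and AKR1C2 with −0.78 (SE 0.13, adjusted p = 0.0159), while AKR1C3 measured −0.25 (SE 0.07, adjusted p = 0.0838). The 0.5 FPKM added before the logarithm understates changes at these levels. In limma voom on the recovered reads, where 20.1% of 16535 genes with a mean of at least 10 reads fell, the log2 changes were −1.30 for AKR1C1, −1.55 for AKR1C2 and −1.19 for AKR1C3 (adjusted p = 3.65e-07, 3.20e-07 and 0.00811). The AKR1C2 call without the filter was lost when any library but siControl replicate 4 was left out (limma adjusted p 0.0570 to 0.0739), and with the replicate number as a block neither AKR1C1 nor AKR1C2 passed the test (adjusted p = 0.0614 and 0.0671). The sum of reads over the 3 genes does not depend on how shared reads are split among them, although it does on whether they were dropped or counted more than once. It was 314, 337 and 265 reads in siControl and 125, 134 and 172 reads in siSGK1. The sum of their FPKM, which also depends on the gene each read was given to, was 1.65 ± 0.24 and 0.613 ± 0.060 FPKM (37.2% of control, exact permutation p = 0.1). The within-library log2 ratio of AKR1C1 to AKR1C2 was −0.34 ± 0.17 in siControl and −0.12 ± 0.08 in siSGK1, with overlap (exact permutation p = 0.2, adjusted p = 0.267). The ratios of AKR1C3 to AKR1C1 and to AKR1C2 were higher in every siSGK1 library by 0.30 and 0.53 (exact permutation p = 0.1, adjusted p = 0.267 for each). Both separations depend on the added 0.5 FPKM. Without it, AKR1C3 stood to AKR1C1 at ratios of 0.292 to 0.425 in siControl and 0.249 to 0.521 in siSGK1, which overlap. The ratios of AKR1C3 to AKR1C2 were then 0.169 to 0.270 in siControl and 0.233 to 0.410 in siSGK1, which also overlap.

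**Figure D3:**
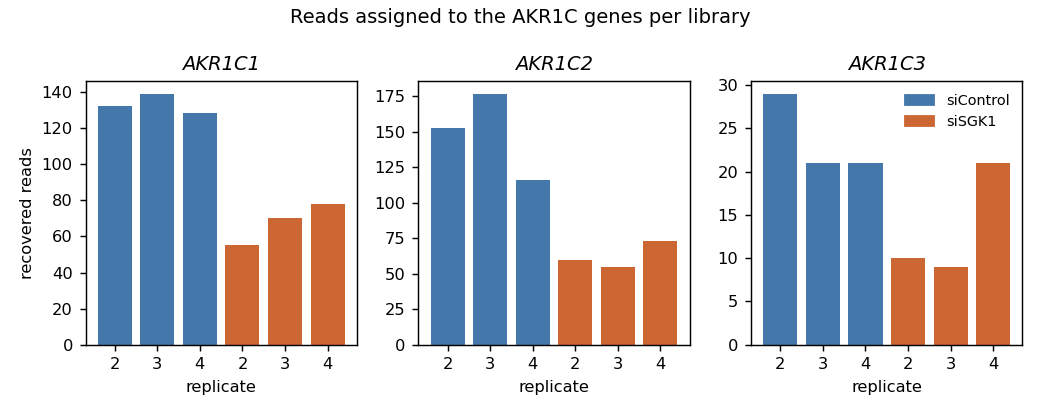
Reads assigned to AKR1C1, AKR1C2 and AKR1C3 (y axes, each from 0 and on its own scale) in the 3 siControl (blue) and 3 siSGK1 (orange) libraries, by replicate number (x axis). The reads are not scaled to depth, and the highest siSGK1 library holds 78 reads for AKR1C1, 73 for AKR1C2 and 21 for AKR1C3, against lowest siControl libraries of 128, 116 and 21.

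Beyond the tests, the groups can be compared by whether any library overlaps. In the deposited FPKM, for 9 of the 10 reductases, and 6 of the 7 tested, every siSGK1 library lay below every siControl library, beside 28.8% of all tested genes. None lay wholly above, beside 24.6%. Both shares are of tested genes and do not cover the AKR1C genes. All 6 of the tested reductases so separated had a mean of at least 30 FPKM, and the share at that level was not computed. The summed level of all 10 genes was 462.6 ± 15.4 FPKM in siControl and 336.4 ± 11.9 FPKM in siSGK1 (72.7% of control, exact permutation p = 0.1). NQO1 made up the largest share of both sums.

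The size of each change depends on how libraries are scaled. The deposited values place the median tested gene at −0.01, scaling by total reads at 0.12, and TPM scaling at 0.19 log2 units, so every change is relative to that gene. AKR1B10, AKR1B1, NQO1 and AKR1A1 fell under each of these scalings and under quantile normalization. Under TPM scaling the smallest of their 4 changes was that of AKR1A1 (−0.19, limma adjusted p = 0.00424). The reductase calls under TPM scaling numbered 4 lower and 0 higher of 7, beside 9.8% of all tested genes lower and 47.3% higher.

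**Figure D4:**
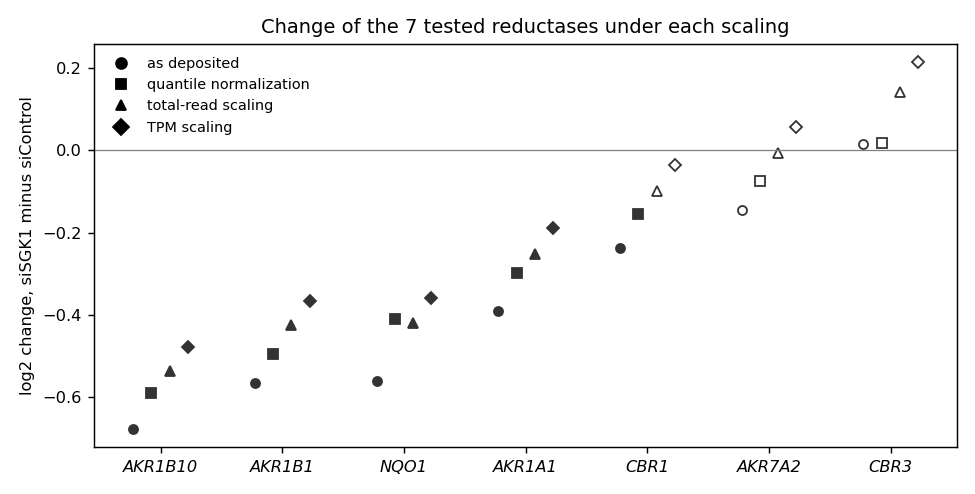
Log2 change (y axis, siSGK1 minus siControl) of the 7 tested reductases under the deposited scaling, quantile normalization, total-read scaling and TPM scaling, filled where the limma adjusted p was below 0.05. AKR1B10, AKR1B1, NQO1 and AKR1A1 stay below 0 and filled throughout, CBR1 is open under total-read (−0.10) and TPM scaling (−0.04), and AKR7A2 crosses 0 under TPM scaling (0.06).

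Other genes of the same enzyme families were called in both directions, at shares to be read against 22.7% lower and 17.9% higher over all tested genes as deposited and 9.8% and 47.3% under TPM scaling. Of 10 other aldo-keto reductases, 2 were tested: KCNAB2, a beta subunit of potassium channels that keeps the reductase fold, fell from 1.57 ± 0.08 to 0.949 ± 0.129 FPKM (limma log2 change −0.52, adjusted p = 0.00287), and AKR1E2 was not called (0.09, adjusted p = 0.447). Of 28 tested short-chain dehydrogenases other than CBR1 and CBR3, 9 fell and 3 rose as deposited, but 2 fell and 12 rose under TPM scaling, and their median log2 change was −0.08. RDH11, a retinal reductase, fell to 79.4% of control, SPR, which completes tetrahydrobiopterin synthesis, to 78.9%, HSD17B10, a mitochondrial dehydrogenase and subunit of the mitochondrial RNase P, to 78.9%, and HSD17B7, an enzyme of cholesterol synthesis, to 73.3% (limma adjusted p = 0.000888, 0.000976, 0.00444 and 0.00822). HSDL2, a peroxisomal protein, rose to 137.8%, DHRS11, a steroid dehydrogenase, to 118.0% and DECR2, the peroxisomal dienoyl-CoA reductase, to 129.7% of control (adjusted p = 0.00337, 0.0148 and 0.0350).

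Of 12 other tested quinone and enone reductases, 2 fell and 2 rose, and 1 fell and 5 rose under TPM scaling. NQO2, the relative of NQO1 that uses dihydronicotinamide riboside, measured 2.32, 2.01 and 2.18 FPKM in siControl and 1.45, 1.48 and 1.39 FPKM in siSGK1. It fell to 66.3% of control (limma log2 change −0.46, SE 0.07, adjusted p = 0.00160), beside 67.6% for NQO1. The log2 ratio of NQO1 to NQO2 differed by −0.10 between groups, with overlap (exact permutation p = 0.3, adjusted p = 0.343). CYB5R1, a cytochrome b5 reductase, fell to 77.5% of control (adjusted p = 0.00338), while TP53I3, a p53-induced quinone reductase, rose to 122.9% (adjusted p = 0.0154) and PTGR2, a prostaglandin reductase, to 138.1% (adjusted p = 0.0306).

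Genes of the NRF2 pathway were read beside the reductases. The list was drawn up with earlier results of these libraries known, so its direction is no independent evidence. NFE2L2, which encodes NRF2 (chromosome 2, 177227595 to 177392697, minus strand), measured 11.9, 12.5 and 12.7 FPKM in siControl and 6.39, 6.21 and 6.30 FPKM in siSGK1. NFE2L2 fell to 51.0% of control (limma log2 change −0.92, SE 0.05, adjusted p = 8.92e-06), a larger log2 change than that of any of the 7 tested reductases. KEAP1 measured 48.9, 50.7 and 48.1 FPKM in siControl and 47.1, 41.0 and 45.3 FPKM in siSGK1 and was not called (−0.15, adjusted p = 0.0695). Of the 10 regulators tested, 4 fell and 1 rose as deposited, beside 22.7% of all tested genes lower and 17.9% higher. Under TPM scaling 1 fell and 3 rose, beside 9.8% of all tested genes lower and 47.3% higher. The small MAF partners MAFF and MAFG fell to 74.5% and 88.5% and SQSTM1, a cargo receptor that binds KEAP1, to 80.1%, while NFE2L1, a relative of NFE2L2, rose to 113.0% (adjusted p = 0.00894, 0.0341, 0.00710 and 0.0133).

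Of 25 other NRF2 target genes, 23 were tested, 18 fell and 0 rose, with a median log2 change of −0.36, beside the background of 22.7% given above. Several of the 23 are abundant, and of all tested genes with a mean of at least 30 FPKM, 42.9% fell. Under TPM scaling 13 fell and 1 rose, beside 9.8% of all tested genes lower and 47.3% higher. ALDH3A1, which oxidizes aldehydes to acids, fell to 31.4% of control, and HMOX1, the inducible heme oxygenase, to 30.9% (limma adjusted p = 2.89e-06 and 5.07e-05). GPX2, a glutathione peroxidase of epithelia, fell from 140.4 ± 7.1 to 73.6 ± 6.3 FPKM, and FTL, the light chain of the iron store ferritin, from 847.7 ± 73.2 to 473.5 ± 22.3 FPKM (adjusted p = 3.54e-05 and 5.73e-05). The 5 tested targets that did not pass the test, named here after their values were seen, were GCLM, ABCC3, TXNRD1, UGDH and ME1, with log2 changes from −0.20 to −0.04.

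**Figure D5:**
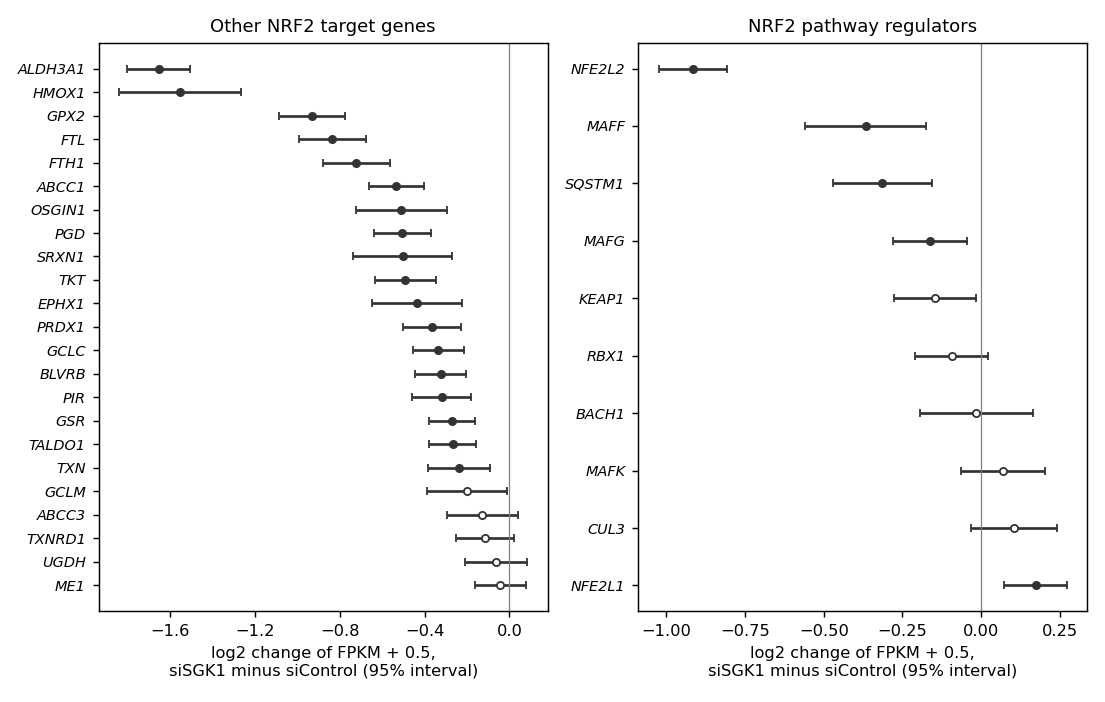
Log2 change of FPKM + 0.5 (x axes, siSGK1 minus siControl) with 95% intervals from limma for 23 tested NRF2 target genes other than the reductases (left) and 10 regulators (right), filled where the adjusted p was below 0.05. All 23 targets lie below 0, from −1.66 for ALDH3A1 to −0.04 for ME1, while the regulators run from −0.92 for NFE2L2 to 0.17 for NFE2L1.

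The antioxidant response element, the site that NRF2 binds with a small MAF protein, has the core TGACNNNGC. It was searched for on both strands of the RefSeq promoter windows (GRCh38.p14, 250 bases before to 50 after a start), of which 8 of the 10 reductases had at least 1 and 11 in all. AKR1B10 and CBR3 had none. Of all 35116 windows, 13.3% held the core, and of the reductases AKR7A2 and CBR1 did. The windows below are of AKR7A2 (chr1:19312097-19312396, minus strand), CBR1 (chr21:36069774-36070073, plus strand) and NQO1 (chr16:69726511-69726810, minus strand), shown because they hold 3, 1 and 0 matches, with the matched bases in capitals.
AKR7A2: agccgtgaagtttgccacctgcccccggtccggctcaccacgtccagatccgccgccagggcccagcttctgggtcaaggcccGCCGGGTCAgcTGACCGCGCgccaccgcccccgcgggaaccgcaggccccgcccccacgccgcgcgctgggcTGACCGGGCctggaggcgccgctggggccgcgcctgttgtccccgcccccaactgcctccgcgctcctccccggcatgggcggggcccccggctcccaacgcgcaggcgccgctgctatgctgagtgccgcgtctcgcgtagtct
CBR1: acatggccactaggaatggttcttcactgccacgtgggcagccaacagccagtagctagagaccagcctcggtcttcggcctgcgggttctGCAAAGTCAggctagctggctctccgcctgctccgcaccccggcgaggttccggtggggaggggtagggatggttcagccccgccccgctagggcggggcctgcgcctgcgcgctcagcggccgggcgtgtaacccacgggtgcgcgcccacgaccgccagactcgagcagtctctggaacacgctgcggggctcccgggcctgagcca
NQO1: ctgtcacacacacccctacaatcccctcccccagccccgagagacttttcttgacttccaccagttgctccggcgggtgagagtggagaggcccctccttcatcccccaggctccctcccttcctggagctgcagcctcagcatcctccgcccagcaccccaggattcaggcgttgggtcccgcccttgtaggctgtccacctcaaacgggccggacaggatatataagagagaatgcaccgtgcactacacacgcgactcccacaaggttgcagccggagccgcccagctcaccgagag
A window with 3 or more matches was found for 0.0769% of all windows. The numbers of matches did not order the genes by their change: AKR7A2 with 3 was not called, CBR1 with 1 fell to 84.6% of control, and NQO1 with 0 fell to 67.6%. A match is a description of letters and not a bound site, and the well-known element of NQO1 lies upstream of this window. The AKR1C1 and AKR1C2 windows were the same at 98.6% of 292 aligned bases, and each was the same as that of AKR1C3 at 77.9% and 77.2%.

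Genes that lie beside the reductases were called in both directions under the deposited scaling. Within 100000 bases of a reductase there were 21 other tested genes, of which 3 fell, 6 rose and 12 did not pass the test, beside 22.7% of all tested genes that fell and 17.9% that rose. Around AKR1A1, PRDX1 (a peroxiredoxin 27496 bases away that is also on the NRF2 target list) and TESK2 fell, with limma log2 changes of −0.36 and −0.81, while NASP (a histone chaperone), GPBP1L1 and MMACHC (a cobalamin-processing protein) rose by 0.37, 0.28 and 0.37. Around NQO1, NOB1 fell by 0.18, WWP2 and the antisense RNA AC092115.3, which starts 62 bases from NQO1, rose by 0.29 and 0.62, and NFAT5 was not called (0.15). AC092115.3 measured 1.60 ± 0.36 FPKM in siControl and 2.70 ± 0.22 in siSGK1, opposite in direction to NQO1. None of the 7 tested neighbours of AKR7A2 passed the test: CAPZB, MRTO4, PQLC2, UBR4, EMC1, AL035413.1 and AL035413.2. PQLC2, a lysosomal amino acid transporter that starts 180 bases from AKR7A2 on the other strand, measured 7.05 ± 0.39 and 6.97 ± 0.63 FPKM. Near CBR1 and CBR3, SETD4, whose span covers CBR1, DOPEY2 and MEMO1P1 were not called, and RUNX1 rose by 0.26. Near AKR1B1, AC009275.1 was not called.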

How the data were processed

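The authors deposited FPKM for 58302 genes in a single table that has 1 column for each of the 6 libraries (3 siControl, 3 siSGK1) and no column of other samples. Per the submitters' processing notes, bcl2fastq 2.19, HISAT2 2.0.5, featureCounts 1.5.0-p3 and hg19 were used, but the table's positions are those of GRCh38: 56588 of 57980 identifiers shared with GENCODE 29 (97.6%), and all 10 reductases, had the same position. The counting by strand and of reads mapping to several places is not given in the sources used here.

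Whole reads were recovered, since 100% of the deposited FPKM values above 0 were whole multiples of 1 step per library within 0.001, and these were used for depth and for limma voom. The library sizes so implied equal median-of-ratios factors times a constant, so the deposited values already carry that scaling. The main test was limma 3.58.1 in R 4.3.3 (empirical Bayes with trend, two-sided) on log2(FPKM + 0.5) over 11945 genes with a mean of at least 1 FPKM, Benjamini-Hochberg adjusted over them and called at 0.05. Fold changes on this scale understate those of low genes. The test was tried on simulated data first. Percentages of control are ratios of mean FPKM. Ratios of 8 pairs of relatives and sums were compared by exact two-sided permutation tests (scipy 1.17.1), whose smallest p is 0.1.

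The reductases, gene lists and tests were chosen with earlier results of these data known. The genes named are SGK1, the 10 reductases, their pair partners, tested neighbours within 100000 bases, NFE2L2, KEAP1, the up to 4 called genes per direction with the smallest p in each pathway list, and the up to 3 most abundant markers. The alternatives were pseudocounts of 0.1 and 1, no filter and a filter of 5 FPKM, 3 other scalings, limma voom, the replicate number as a block and leaving out each library; fits of the AKR1C genes without the filter, voom from a mean of 10 reads, and ratios without pseudocount were added after the data were seen. No protein table was used here, so coding sequences of GENCODE 29 transcripts were compared in place of proteins. With 3 libraries per group, p-values measure the spread between these cultures. A gene of the NRF2 target list is not reported here.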

Additional observations from a re-analysis of the deposited data

How the results depend on the processing

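NQO1, AKR1B10 and AKR1B1 kept their direction and their call under every alternative run. SGK1 did so under every alternative that tested it, its mean being below the filter of 5 FPKM. AKR1A1 did so under all but 4 of the fits that drop the level filter together with another change: with the replicate block (limma adjusted p = 0.0565) and without siControl replicate 3 (0.0613), siControl replicate 4 (0.0531) or siSGK1 replicate 4 (0.0601). Values were also tallied under alternatives. For SGK1 and the 7 tested reductases the tally leaves out every fit that drops the level filter together with another change. The calls that AKR1A1 and CBR1 lost in such fits are therefore not counted. A gene's test was the same if it kept its side of the threshold and its direction, or turned direction with neither fit called. Such uncalled turns include AKR7A2 under TPM scaling (0.06) and CBR3 without siSGK1 replicate 2 (−0.08). Ratios of relatives were the same if they kept direction, and counts if within 1.5 times. By these rules 303 values stayed the same, 17 moved, 9 lost and 3 gained a call and 5 turned direction. AKR7A2 was among those that gained one, with voom (−0.15, adjusted p = 0.0460) and without siSGK1 replicate 2, but not with voom from a mean of 10 reads (adjusted p = 0.0531). Leaving out each library in turn gave 2095 to 2506 genes called lower and 1678 to 1960 called higher over all tested genes (2709 and 2143 with all libraries), 5 to 6 reductases called lower, and a summed AKR1C level of 34.4% to 39.6% of control. Scaling moved the counts: over all tested genes, 1546 were lower and 4309 higher with total-read scaling and 1171 lower and 5645 higher with TPM scaling, while a filter of 5 FPKM, which tests fewer genes, left 1282 higher. With total-read scaling, short-chain dehydrogenases numbered 3 lower and 7 higher, higher quinone and enone reductases 4, and higher NRF2 regulators 3. With TPM scaling, short-chain dehydrogenases numbered 2 lower and 12 higher, quinone and enone reductases 1 lower and 5 higher, NRF2 regulators 1 lower and 3 higher, other aldo-keto reductases 1 higher, and other NRF2 targets 1 higher. The difference of the log2 ratio of AKR7A2 to AKR7A3 turned to 0.15 with a pseudocount of 0.1, to 0.30 with none, and with libraries left out ranged from −0.077 to 0.016, and that of NQO1 to NQO2 turned to 0.029 with no pseudocount. With 3 libraries a group these ratio differences cannot pass the test, and the cause of the shifts was not tested.

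With the replicate number as a replicate block, SGK1 measured −1.07 (limma adjusted p = 2.14e-05), 5 reductases were lower, and 2549 genes were lower and 2011 higher. The shared numbers gave no sign of pairing: deviations from the group means correlated at 0.12, 0.01 and −0.10 across genes for the same-numbered libraries 2, 3 and 4. AKR1C1 and AKR1C2 are limited by depth, at 55 to 177 reads per library, and AKR1C3 at 9 to 29.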
